A study of Mus musculus with 9 samples.

Results

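Bst2 and 8 further interferon-stimulated genes, Ifitm2, Ifitm3, Ifit1, Ifit3, Isg15, Irf7, Irf9 and Stat2, were followed in fetal mouse brain after alcohol exposure early in gestation. These 9 genes were taken from a table of 27095 loci. They were chosen by a rule that used measured values, because Bst2 had one of the lowest ratios in EtOH-exposed unaffected against control offspring, so the values of Bst2 in that comparison are a description. The 9 animals were wild-type C57BL/6 fetuses (C57BL/6J in the methods) on gestational day 17, with 3 animals in each of 3 groups. Control offspring came from dams injected with lactated Ringer's solution, and EtOH-exposed offspring from dams that had received an intraperitoneal dose of 2.9 g/kg when they were 7 days pregnant. The exposed offspring were divided by phenotype, into unaffected offspring that appeared normal and affected offspring with ocular, craniofacial and cortical defects. Both EtOH groups thus share the exposure. Tissue is given as fetal brain in the sample labels and as cortex in the methods, and all 10 cortical marker genes examined were present, among them Neurod6 at 409 FPKM in controls.

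Expression is given in FPKM, the number of fragments scaled to exon length and library size. The authors deposited 1 FPKM value per locus and group, taken over the 3 animals. No value of a single animal was analysed here, so no difference below can be set against the spread between animals, and no test was made. From the steps that single fragments leave in the values of weakly expressed genes, the depth was estimated. It came to about 26600000 fragments per library in controls, 29100000 in unaffected offspring and 35700000 in affected offspring. The intervals given below are 95% exact Poisson intervals on the fragments behind a value. They are approximate, since they rest on this estimate and on annotated transcript lengths, and they cover counting error only. All 3 comparisons share groups with each other, so they are not independent. In bulk tissue, fewer cells of a type and less RNA per cell cannot be told apart.

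Type I interferons bind the receptor pair Ifnar1 and Ifnar2, whose kinases Jak1 and Tyk2 phosphorylate Stat2. With Irf9, Stat2 enters the complex ISGF3, which binds the interferon-stimulated response element (ISRE) in the promoters of interferon-stimulated genes. The products of these genes restrict viruses at several steps, and some of them, such as Irf7, feed back on interferon production. In brain, low interferon signalling without infection keeps many of these genes at a basal level, with microglia and endothelial cells among the responding cells.

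The promoters were examined first, since the response element is what these genes are known to share and the choice of the genes did not use it. RefSeq promoters of 300 bases (GRCm38.p6), from 250 bases before to 50 bases after the start of transcription, were searched on both strands for the ISRE core GAAANNGAA. It occurred in 7 of the 9 genes, and in 8.56% of 32851 mouse promoters (9.76% of 27025 genes). Irf7 and Irf9 had no match in this window. Among other interferon-stimulated genes with a promoter in the table, 25 of 45 (55.6%) held the core. The matches of 6 genes are shown in windows of 30 bases because they show how closely the matches are packed in Isg15, Bst2 and Ifit1. Each is written 5′ to 3′ on the strand of the gene, with the bases of every match that lies wholly within the window in capitals.
Isg15: cgtagGAAAAGGAAACCGAAACAGAAaata
Bst2: cattccagGAAAATGAAACTGAAaggctgc
Ifit1: ctgcaggcTTCAGTTTCACTTTCcagtctc
Ifit3: ctactttcctcTTCCCTTTCacaaacactg
Ifitm2: cccaccaacagGAAAAGGAAattgctagag
Stat2: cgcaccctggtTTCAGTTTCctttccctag

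The Isg15 window lies at chr4:156200872-156200901 on the minus strand and holds 3 overlapping matches, 78 to 58 bases before the start site. The Bst2 window, at chr8:71537581-71537610 on the minus strand, holds 2 overlapping matches 130 to 116 bases before the start. In Ifit1, at chr19:34640772-34640801 on the plus strand, 2 of the 3 matches in the promoter overlap, and in Ifit3, at chr19:34583416-34583445 on the plus strand, the 1 match nearest the start is shown of 3. Ifitm2, at chr7:140955989-140956018 on the minus strand, and Stat2, at chr10:128270266-128270295 on the plus strand, have 1 match each. Both matches of Ifitm3 lie after the start site, between bases 3 and 28. The gamma-activated site TTCNNNGAA, an element of the response to interferon-gamma, was found in Bst2 and Ifitm3 only among the 9 genes and in 8.30% of all promoters, and in both genes it overlaps a match of the ISRE core. A match of these letters is a description of the sequence and does not show that a factor binds there.

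Across the 9 genes, 6 had their highest level in control offspring, an intermediate level in unaffected and their lowest in affected offspring. These were Bst2, Ifitm3, Isg15, Ifit1, Ifit3 and Irf7. Ifitm2, Irf9 and Stat2 had other orders. The genes were divided by level, with 6 of them (Bst2, Ifitm2, Ifitm3, Isg15, Irf9 and Stat2) at a mean of at least 1 FPKM over the groups, and 3 of them (Ifit1, Ifit3 and Irf7) between 0.1 and 1 FPKM. The falling order was seen in 3 of the first 6, where 9.72% of all loci at that level have it, and in 3 of the 3 weaker genes, where 18.4% of loci have it. These counts are a description, since the first step of the order is the comparison that chose Bst2, Ifit1 reached its class only through its level in controls, and the steps of Ifit3 were within counting error. In Isg15, Irf7 and Ifit1 the step from unaffected to affected offspring was also within counting error, as the intervals of the exposed groups overlapped.

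**Figure D1:**
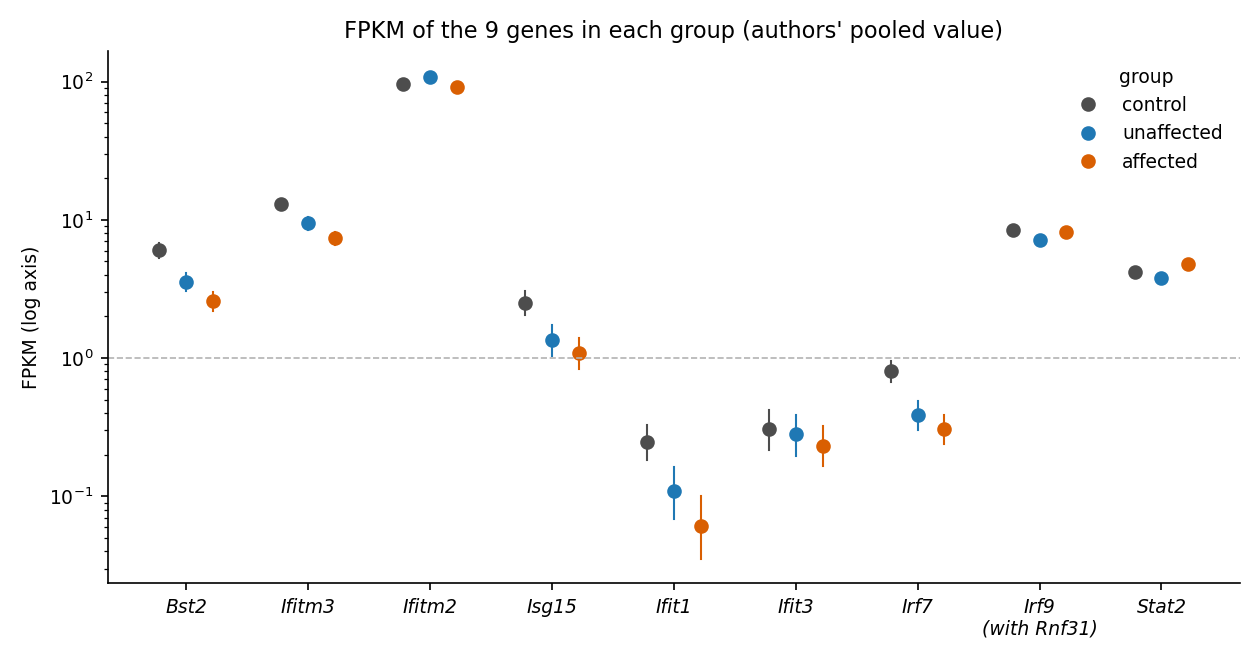
FPKM of each of the 9 genes on a log axis, with 1 point per group (control, unaffected, affected), which is the authors' value over 3 animals. Vertical lines are 95% counting intervals, where an estimate of the fragments was made (not for the joined Irf9 locus), and the dashed line marks 1 FPKM. In 6 genes the points step down from control to affected, while Ifitm2, Irf9 and Stat2 stay within a narrow range.

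Bst2 (tetherin, chr8:71534262-71537437, mm10) encodes a membrane protein that holds enveloped virus particles on the surface of infected cells. Its level was 6.03 FPKM in the controls, 3.58 FPKM in unaffected offspring and 2.58 FPKM in affected offspring. The counting intervals of the 3 groups, 5.33 to 6.79, 3.08 to 4.16 and 2.18 to 3.01 FPKM, did not overlap, with about 270, 176 and 155 fragments behind them. Bst2 was therefore 1.69-fold lower in unaffected than in control offspring (log2 ratio -0.75) and 2.34-fold lower in affected offspring (-1.22). Among 12361 loci with a single gene name and a mean of at least 1 FPKM, Bst2 ranked 19 from the lowest ratio of unaffected to control, and among all 15463 loci of that level, which include unnamed and joined loci, it ranked 315. Its neighbour in that order, named here only for its rank, was Snora3 just before it (-0.81).

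The other membrane proteins of the group, Ifitm3 and Ifitm2, block the entry of viruses from endosomes. Ifitm3 (chr7:141009590-141010744) stood at 12.9 FPKM in controls, at 9.47 FPKM in unaffected offspring and at 7.34 FPKM in affected offspring. Its counting intervals, 11.8 to 14.2, 8.52 to 10.5 and 6.60 to 8.16 FPKM, were also separate. The log2 ratio to control was -0.45 in unaffected offspring, short of 1.5-fold, and -0.82 in affected offspring, a 1.76-fold lower level. Ifitm2 (chr7:140954835-140955961) was by far the strongest of the 9 genes, at 96.5, 108 and 91.6 FPKM in control, unaffected and affected offspring. Counting intervals were 93.2 to 99.8, 105 to 112 and 88.8 to 94.4 FPKM, so that of unaffected offspring was separate from the others. The log2 ratios to control, 0.17 in unaffected and -0.08 in affected offspring, were small, and the sign of the second changed when a trend with transcript length was subtracted (0.06). Part of the Ifitm2 locus is shared with Gm45717, annotated on the same strand, so fragments of the 2 genes may not be separable. The neighbouring family member Ifitm1 was at 6.29, 6.58 and 6.39 FPKM in the same order of groups, and Ifitm10 was at 1.72 FPKM in controls, with log2 ratios to control of -0.20 in unaffected and -0.36 in affected offspring.

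Isg15 (chr4:156199424-156200818) encodes a ubiquitin-like protein that is attached to other proteins during the interferon response. Controls had 2.51 FPKM, unaffected offspring 1.34 FPKM and affected offspring 1.08 FPKM. The control interval of 2.05 to 3.03 FPKM lay above the intervals of 1.03 to 1.73 and 0.828 to 1.39 FPKM in the exposed groups, which overlapped each other. The level was 1.87-fold lower in unaffected offspring (-0.90) and 2.33-fold lower in affected offspring (-1.22) than in control offspring. A pseudocount of 1 FPKM took the first ratio to -0.58, just short of 1.5-fold, and the second to -0.76.

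Ifit1 and Ifit3 encode proteins with tetratricopeptide repeats that recognise viral RNA and block its translation. Ifit1 (chr19:34640889-34650009) was at 0.249, 0.110 and 0.0610 FPKM in control, unaffected and affected offspring, with only about 48, 23 and 16 fragments behind the values. Its log2 ratio to control was -1.18 in unaffected and -2.03 in affected offspring, the lowest of the 9 genes in both comparisons. With a pseudocount of 1 FPKM, which is above its level, these became -0.17 and -0.24, short of 1.5-fold. The control interval of 0.183 to 0.329 FPKM lay above those of the exposed groups, 0.0688 to 0.163 and 0.0352 to 0.0999 FPKM, which overlapped each other. Ifit3 (chr19:34583529-34588982) was at 0.306, 0.280 and 0.232 FPKM, and its 3 counting intervals overlapped, so a difference was not detectable at this depth. Its near-identical copy Ifit3b was sought by name and had no locus of its own, and how fragments of the copies were counted is uncertain.

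Irf7, Irf9 and Stat2 regulate the response. Irf7 (chr7:141263183-141266424), the transcription factor that drives type I interferon genes and is itself induced by interferon, had 0.805 FPKM in controls, 0.386 FPKM in unaffected offspring and 0.306 FPKM in affected offspring. Its level was 2.09-fold lower in unaffected and 2.63-fold lower in affected offspring than in control offspring (log2 ratios -1.06 and -1.39). The control interval of 0.673 to 0.958 FPKM lay above both exposed intervals, 0.301 to 0.492 and 0.237 to 0.390 FPKM, which overlapped each other. These intervals rest on the longest coding transcript of Irf7 and may be too narrow. With a pseudocount of 1 FPKM the ratios became -0.38 and -0.47, also short of 1.5-fold. Irf9, the DNA-binding subunit of ISGF3, was counted in 1 locus together with Rnf31 (chr14:55591654-55610097), at 8.38, 7.13 and 8.11 FPKM, and the share of Irf9 in these values is unknown. Stat2 (chr10:128270576-128292849), the ISGF3 subunit particular to interferon signalling, was slightly higher in affected offspring (4.78 FPKM) than in controls (4.20 FPKM) and lowest in unaffected offspring (3.78 FPKM). Its counting intervals, 3.99 to 4.43, 3.58 to 3.98 and 4.58 to 4.99 FPKM in control, unaffected and affected offspring, were separate as well, so separate intervals do not mark out the genes in the falling order. Neither of these loci passed 1.5-fold in a comparison.

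In unaffected against control offspring, 2 of the 6 genes at 1 FPKM or more were lower by over 1.5-fold, Bst2 and Isg15, and 0 were higher. Of all loci at that level, 3.05% were lower and 2.47% higher by as much. Of those with a single gene name, 0.218% were lower and 0.534% higher. Because this comparison chose the genes, nothing is read from the count. Of the 3 weaker genes, Ifit1 and Irf7 were lower by over 1.5-fold, where 9.11% of loci between 0.1 and 1 FPKM were lower and 9.64% higher. The median log2 ratio of the 6 genes was -0.34, and that of all 15463 loci at that level 0.01.

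In affected against control offspring, which share the control group with the comparison that chose the genes, Bst2, Ifitm3 and Isg15 were lower by over 1.5-fold, 3 of the 6 genes, against 3.14% of loci lower and 3.48% higher. Ifit1 and Irf7 were lower among the 3 weaker genes, against 12.7% of loci lower and 13.4% higher at that level. Ifit1 reached a mean of 0.1 FPKM only through its level in controls, so its count as lower is partly set by the division by level. The median of the 6 genes was -0.45, and that of all loci 0.02. On the same scale Bst2 ranked 82 and Isg15 ranked 83 from the lowest of 15474 loci, and Ifitm3 ranked 238.

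From unaffected to affected offspring, the ratios of Bst2, Ifitm3, Isg15, Irf7 and Ifit1 were nearer to 0 than in unaffected against control offspring, while those of Ifit3, Ifitm2 and Stat2 were farther from it. Bst2 had a log2 ratio of -0.47, Ifitm3 of -0.37, Isg15 of -0.32 and Irf7 of -0.33, and none of these reached 1.5-fold. Of the 6 genes 0 were lower or higher past 1.5-fold, where 5.13% of loci were lower and 7.20% higher. Of loci with a single gene name at 1 FPKM or more, 3.49% were lower and 3.45% higher. Ifit1 alone passed among the weaker genes (-0.85), at a level where 13.9% of loci were lower and 15.0% higher. The counting intervals of Ifit1 in the exposed groups overlapped. Pseudocounts of 0.1 and 1 FPKM took its ratio to -0.38 and -0.065, short of 1.5-fold. Stat2 went the other way, at 0.34.

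**Figure D2:**
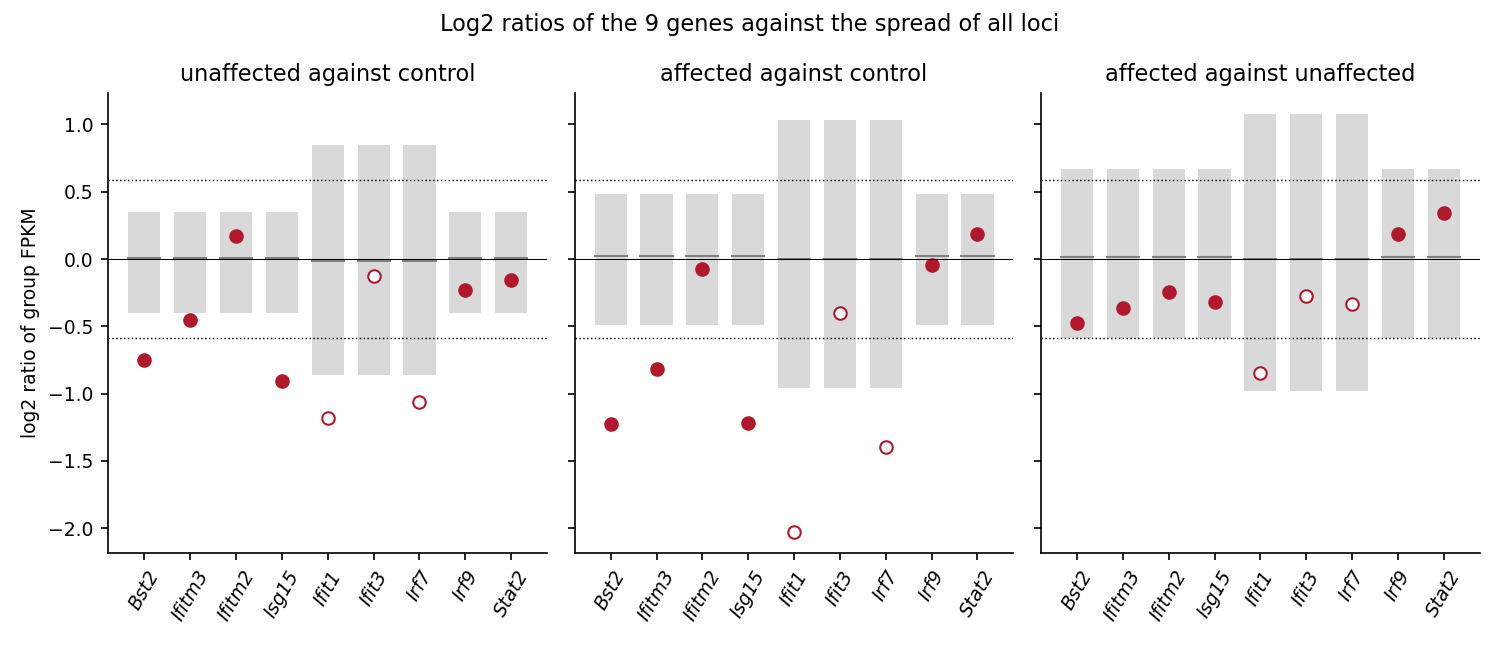
Log2 ratios of group FPKM for the 9 genes in the 3 comparisons. Filled points are genes at 1 FPKM or more, open points weaker genes, grey boxes the 5th to 95th percentile of all loci of the same level with their median, and dotted lines 1.5-fold. Bst2 and Isg15 lie below the grey boxes in both comparisons with control, and within them in affected against unaffected offspring.

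The ratios between groups also varied with transcript length across the whole table. For loci with transcripts shorter than 1000 nucleotides, the median log2 ratio was 0.08 in unaffected against control, -0.15 in affected against control and -0.24 in affected against unaffected offspring. For loci of 4000 nucleotides or more it was -0.09, 0.19 and 0.29. Bst2 (792 nucleotides), Isg15 (756), Ifitm3 (678) and Ifitm2 (655) belong to the short class. After subtraction of a running median by length, Bst2 was at -0.82 in unaffected and -1.10 in affected against control offspring, and Isg15 at -0.98 and -1.10. In affected against unaffected offspring the same subtraction took Bst2 from -0.47 to -0.27, Isg15 from -0.32 to -0.11 and Ifitm3 from -0.37 to -0.17, and the median of the 6 genes from -0.28 to -0.06. Stat2, with transcripts of about 4396 nucleotides, went from 0.34 to 0.12.

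**Figure D3:**
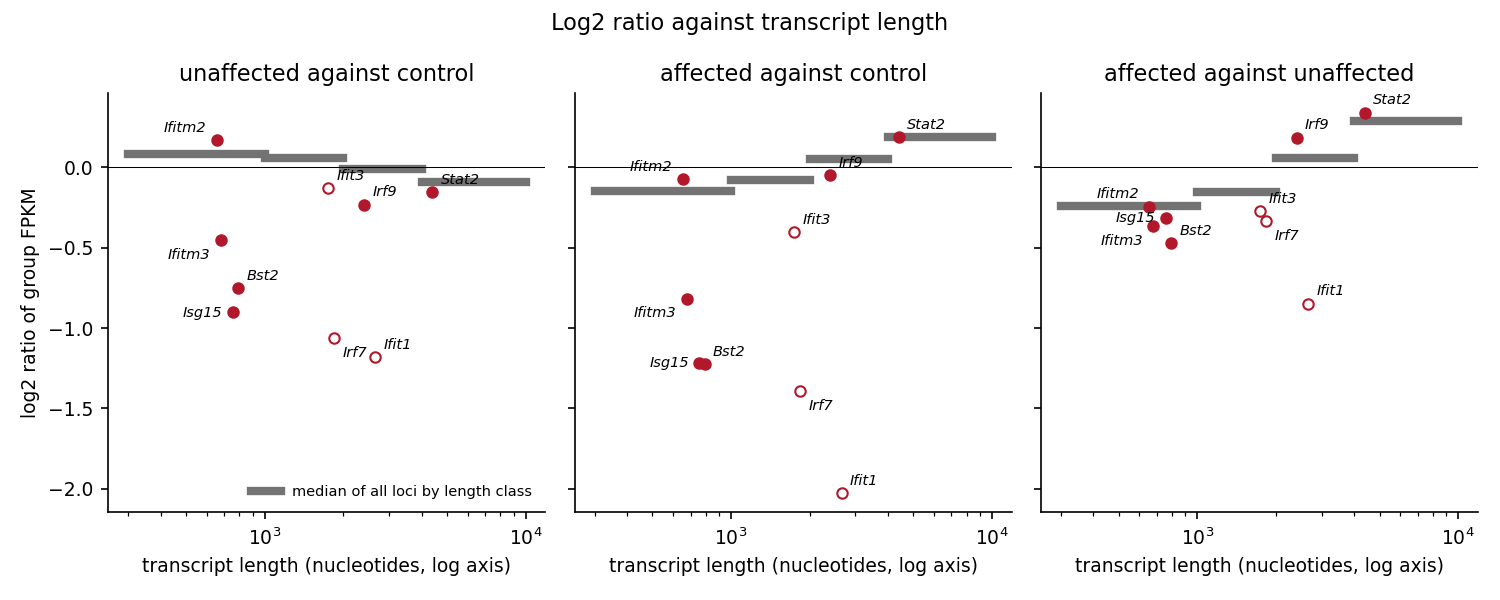
Log2 ratio of group FPKM against the median length of protein-coding transcripts (log axis) for the 9 genes, with filled points for genes at 1 FPKM or more and open points for weaker ones. Grey bars give the median of all loci in each length class, with the shortest and the longest class drawn to the ends of the axis. In both comparisons with control, Bst2, Isg15 and Ifitm3 lie far below the grey bar of their class, and in affected against unaffected offspring they lie closer to it.

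Genes upstream of the response were examined next. Of 21 interferon ligand genes sought, 19 were found, and 18 of these were listed at 0 in every group. A listed 0 may be a failed estimate in this table, since Eef1a1 and Tuba1a, which every cell of this tissue uses, were listed at 0 as well. The receptor genes Ifnar1 (12.1, 12.2 and 13.6 FPKM in control, unaffected and affected offspring) and Ifnar2 (18.0, 17.4 and 18.6 FPKM) were close to level. The interferon-gamma receptor genes Ifngr1 (6.00, 6.35 and 5.14 FPKM) and Ifngr2 (59.2, 60.7 and 57.4 FPKM) and the shared subunit gene Il10rb (3.11, 3.18 and 3.12 FPKM) also stayed within 1.5-fold in all comparisons. The weaker receptor gene Ifnlr1 was at 0.154, 0.0922 and 0.0965 FPKM, lower by over 1.5-fold in both comparisons with control, and reached 0.1 FPKM only through its level in controls. For the 5 receptor genes at 1 FPKM or more, median log2 ratios were 0.03, 0.01 and -0.02 in unaffected against control, affected against control and affected against unaffected offspring.

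Of the signalling genes at 1 FPKM or more, 0 of 10 passed 1.5-fold in any of the 3 comparisons, where between 2.47% and 7.20% of loci passed it in either direction. Among them were the kinase genes Jak1 (19.9, 18.7 and 22.1 FPKM in control, unaffected and affected offspring) and Jak2 (17.3, 15.6 and 18.5 FPKM), the transcription factor gene Irf3 (9.06, 10.2 and 8.94 FPKM), and Socs3, whose product restrains the pathway (3.35, 3.32 and 3.71 FPKM). The median of the 10 was -0.06 in unaffected and 0.12 in affected against control offspring, and 0.18 between the exposed groups. The 5 signalling genes between 0.1 and 1 FPKM had medians of the other sign in the last 2 comparisons, -0.17, -0.37 and -0.20, and 5 of 5 were lower in affected than in unaffected offspring, as were 50.2% of all loci of that level. Of the 5, Usp18 alone was lower by over 1.5-fold in the comparisons with control (-1.24 in unaffected, -1.72 in affected offspring). At that level 9.11% and 12.7% of loci were lower there. The sensors of nucleic acids and their adaptors, which start interferon production, had 0 of 6 genes at 1 FPKM or more past 1.5-fold in any comparison, with medians of -0.01, 0.20 and 0.16. The 9 sensing genes between 0.1 and 1 FPKM had medians of -0.27, -0.40 and -0.16, and 2 of them were lower by over 1.5-fold in affected against control offspring, where 12.7% of loci of that level were lower. These were the RNA sensor genes Ifih1 (-0.84) and Dhx58 (-0.93). The 1 remaining gene of the 16, Tlr9, was below 0.1 FPKM and lower by over 1.5-fold in both comparisons with control. Adar, an RNA-editing enzyme with an interferon-inducible form, was the strongest of the list at 16.0, 14.8 and 19.3 FPKM.

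Further interferon-stimulated genes, 58 found of 61 sought, divided by their level. At 1 FPKM or more, 18 genes had median log2 ratios of -0.05 in unaffected and -0.16 in affected against control offspring and -0.06 between the exposed groups. In unaffected against control offspring 1 of the 18 was lower by over 1.5-fold (3.05% of all loci at that level), Ifi27l2a, which was at 1.69, 1.12 and 0.822 FPKM. In affected against control offspring 3 were lower (3.14% of loci), Ifi27l2a (-1.04), Isg20 (-0.95) and Irgm1 (-0.72). Ifi27l2a and Irgm1 reached a mean of 1 FPKM only through their level in controls, so their count as lower is partly set by the filter. Isg20, an exonuclease gene, was the 1 gene lower by over 1.5-fold in affected against unaffected offspring, where 5.13% of loci were lower. It was at 1.93, 2.01 and 0.997 FPKM, so its level in unaffected offspring was close to that in controls. Irgm1, encoding an interferon-inducible GTPase, was at 1.40, 1.11 and 0.852 FPKM. Falling order was seen in 6 of the 18, Ifi27l2a and Irgm1 among them, and in 9.72% of all loci of that level. The strongest of the 18, Ly6e (27.4, 28.4 and 29.8 FPKM), Shisa5 (20.5, 20.4 and 22.3 FPKM) and Ube2l6 (11.8, 13.9 and 9.46 FPKM, an enzyme that conjugates Isg15), did not share it.

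Weaker interferon-stimulated genes were counted separately. Of 28 genes between 0.1 and 1 FPKM, 7 were lower by over 1.5-fold in unaffected against control offspring, 11 in affected against control and 2 in affected against unaffected offspring, and 0, 0 and 2 were higher. The shares of all loci of that level that were lower are 9.11%, 12.7% and 13.9%, so the count between the exposed groups lay below its background. Falling order was seen in 16 of the 28, and in 18.4% of all loci of that level. Cxcl10 and Ifi44 reached the class only through their level in controls. The median log2 ratios of the 28 genes were -0.30, -0.48 and -0.21, and those of all loci at this level -0.02, 0.00 and 0.00. The other 12 genes of the list were below 0.1 FPKM, where few fragments are expected, and were not counted. The examples that follow were chosen after their values were seen. Cxcl10, a chemokine gene, was at 0.307, 0.0894 and 0.0407 FPKM in control, unaffected and affected offspring. Gbp3, which encodes a guanylate-binding protein, was at 0.662, 0.291 and 0.253 FPKM, and Ifi44 at 0.258, 0.102 and 0.0848 FPKM. Usp18, from the signalling list, encodes the protease that removes Isg15 from proteins and restrains the receptor, and it was at 0.578, 0.244 and 0.176 FPKM. At such levels few fragments stand behind a value, as for Ifit1.

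Antigen presentation genes, which interferon also induces, had median log2 ratios of -0.11, -0.31 and -0.18 for 7 genes at 1 FPKM or more. With the length trend subtracted, the second became -0.16 and the third turned to 0.06. B2m, the light chain of class I molecules, was at 41.4, 34.6 and 33.5 FPKM, and H2-K1, a class I heavy chain, at 3.63, 2.99 and 2.64 FPKM, both in the falling order and short of 1.5-fold. Psmb10, a subunit of the immunoproteasome, was the 1 of these 7 genes past 1.5-fold, in affected against unaffected offspring only (9.57, 10.2 and 6.41 FPKM, -0.68), where 5.13% of loci were lower. The immunoproteasome genes Psmb8 and Psmb9, below a mean of 1 FPKM, were also lower there by over 1.5-fold (-0.71 and -0.92), at a level where 13.9% of loci were lower, and Psmb8 was lower in affected against control offspring (-0.89), where 12.7% were.

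**Figure D4:**
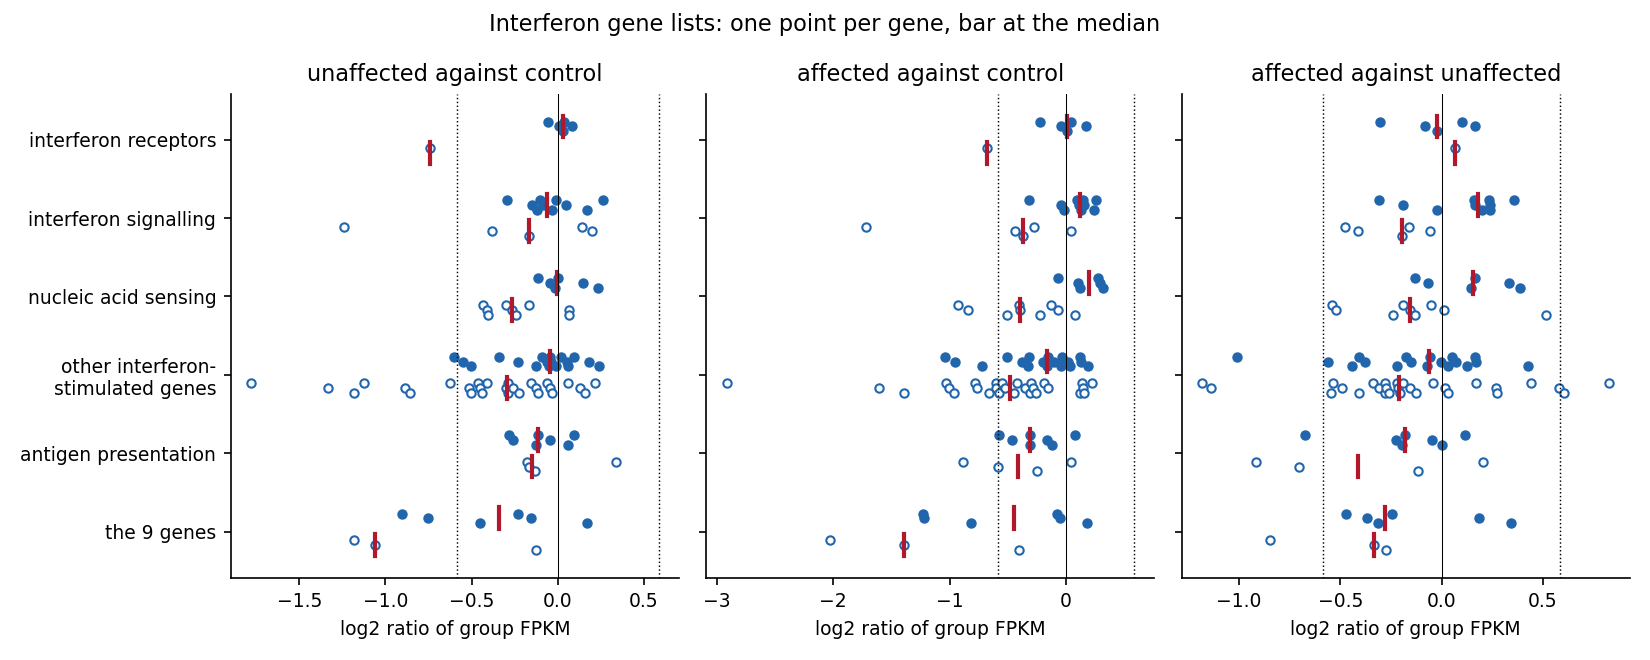
Log2 ratios of group FPKM in the 3 comparisons for lists of interferon genes, 1 point per gene, with filled points at 1 FPKM or more and open points between 0.1 and 1 FPKM. Red bars are medians and dotted lines mark 1.5-fold. Receptor and signalling genes at 1 FPKM or more lie within the dotted lines, and the open points of the other interferon-stimulated genes extend to lower ratios in both comparisons with control.

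The genes with the profile most like that of Bst2 were sought over the 3 groups, as the distance between log2 FPKM values centred on each gene's mean, among 12354 loci with a single name and a mean of at least 1 FPKM. The nearest was Isg15, at a distance of 0.12, followed by Ifi27l2a (0.14), BC033916 (0.17), Snora70 (0.17) and Lin28b (0.19). With 3 groups to compare, many genes can lie close by, and the order is a description only. Ifi27l2a, BC033916 and Lin28b reached a mean of 1 FPKM only through their level in controls, so the filter favours profiles that are high in controls. The distance also uses the values that chose Bst2.

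Cell type markers were set beside these levels, since microglia, endothelium and blood cells carry interferon-stimulated genes. Their part in the result was not tested. Summed FPKM of 12 endothelial markers was 87.6 in controls, 89.6 in unaffected offspring and 91.0 in affected offspring, and that of 7 pericyte markers 54.2, 55.7 and 49.1. The sum of 12 microglial markers was 115, 120 and 95.4 FPKM, and that of 8 meningeal markers 97.0, 89.6 and 86.3 FPKM, with Dcn at 31.6, 28.1 and 22.1 FPKM and Col1a2 at 17.3, 15.9 and 18.0 FPKM. Blood markers were highest in unaffected offspring: 7 erythroid loci summed to 5814, 7524 and 3651 FPKM, mostly from the joined beta-globin locus, and 8 neutrophil markers to 9.71 FPKM in controls, 14.8 FPKM in unaffected offspring and 4.20 FPKM in affected offspring, with Elane at 0 in every group. The 8 choroid plexus markers, led by Ttr, summed to 1008, 1337 and 1122 FPKM. The 10 cortical markers summed to 958, 856 and 1114 FPKM.

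**Figure D5:**
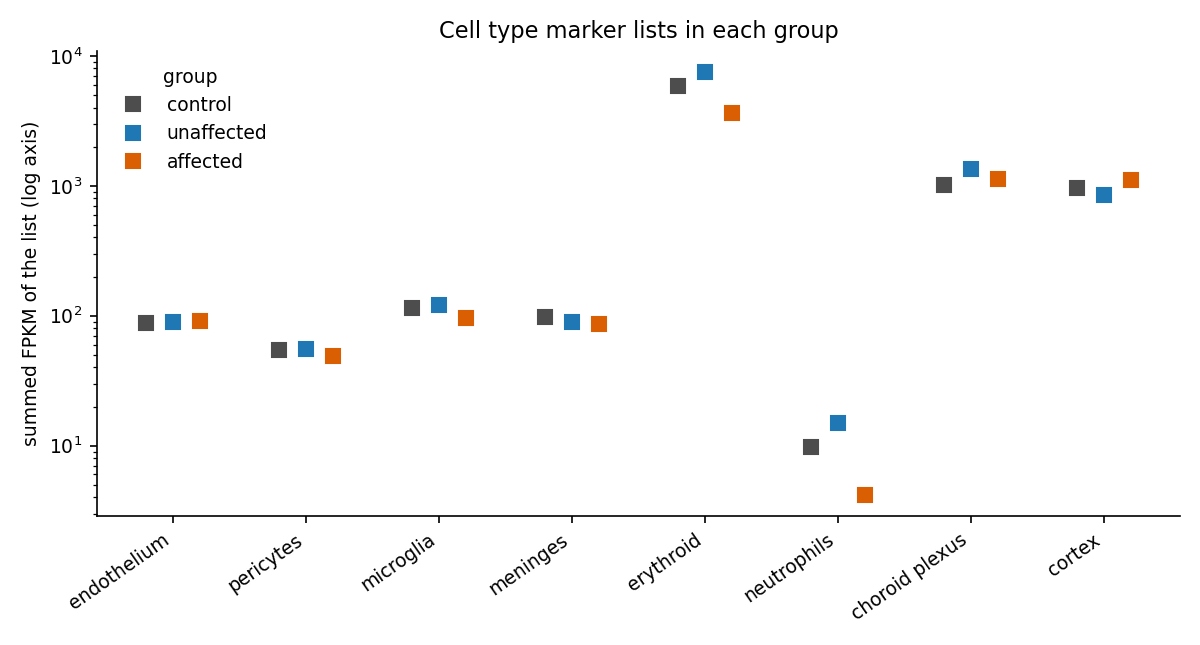
Summed FPKM (log axis) of cell type marker lists in control, unaffected and affected offspring, 1 square per group. Erythroid and neutrophil sums are highest in unaffected and lowest in affected offspring, and the endothelial sums lie between 87.6 and 91.0 FPKM.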

How the data were processed

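Fetal brain RNA of 9 mice in 3 groups of 3 was sequenced by the authors from TruSeq libraries as paired 50-base reads. For alignment to mm10 both STAR and TopHat with Bowtie are named in the methods, and the submitters' processing notes name Bowtie2 2.2.4.0, Cufflinks and Cuffdiff. The deposited table gives FPKM, computed by the authors with the Cufflinks suite as 1 value per group and locus over 3 animals. It has 0 columns of single animals. The authors' own comparisons in the table (fold changes, test statistics, p-values and q-values) were not used.

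Here log2 ratios of group FPKM were computed without a pseudocount. A locus was counted as lower or higher past 1.5-fold, among 15548 loci with a mean of at least 1 FPKM or 3979 between 0.1 and 1 FPKM (the latter class was added after the data were seen). Loci with an FPKM of 0 in a group have no ratio. Transcript lengths came from GENCODE M21, as the median over protein-coding transcripts, and were found for 80.8% of loci. The fragments behind a value, and so the counting intervals, were estimated with the longest protein-coding transcript instead. For Irf7 this is 2237 nucleotides, where the median is 1840, so its fragments may be overestimated and its intervals too narrow. The length trend was a running median over 501 loci. Depth was estimated from the size of 1 fragment in weak loci with a single transcript of 700 to 6000 nucleotides. Scripts were tested on simulated data (Python 3.11.15, pandas 2.3.3, numpy 2.4.6, scipy 1.17.1).

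The genes and all lists were chosen with earlier results of these data known. All 9 genes were named, with receptor, signalling and Ifitm genes of at least 1 FPKM, up to 6 of the strongest genes of other lists with any past 1.5-fold, the 3 strongest of each marker list, and the 5 genes nearest Bst2. Some single genes under this rule are not reported here. Reference genes were Gapdh (442, 477 and 490 FPKM), Ywhaz (308, 297 and 319 FPKM) and H2afz (430, 497 and 356 FPKM). Alternatives were a lower fold limit, other scalings, pseudocounts, other filters, single-gene loci, a length correction and a longer motif.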

Additional observations from a re-analysis of the deposited data

How the results depend on the processing

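No paired analysis was possible because the table holds 1 value per group, and leaving out single animals was not possible for the same reason, so no result has an error between animals. Under 6 alternatives each (3 scalings, 2 pseudocounts, length trend), the log2 ratios of the 9 genes kept their sign, except that of Ifitm2 in affected against control offspring, which was 0.06 with the length trend subtracted. A pseudocount of 1 took the ratios to control of Ifit1 (-0.17 and -0.24) and Irf7 (-0.38 and -0.47) below 1.5-fold, as its construction implies for genes below 1 FPKM. Scaling to Gapdh and Ywhaz moved the median of all loci in affected against control offspring by -0.10, from 0.02 to -0.08, so the medians below under that scaling are to be read against this shift. No other scaling moved it by over 0.1.

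The number of the 9 genes lower past the fold, with the share of all loci under the same setting, was in unaffected against control offspring 2 of 6 as reported, 1 of 6 with a pseudocount of 1 (1.75%), 4 of 9 without a filter (6.30%), 0 of 3 at 5 FPKM or more (1.12%) and 3 of 6 past a lower limit of 0.32 on the log2 scale (7.01%). In affected against control offspring it was 5 of 9 without a filter (7.49%) and 1 of 3 at 5 FPKM or more (1.62%). In affected against unaffected offspring 2 of 6 were lower (18.5%) and 1 higher (20.7%) past that lower limit, and 1 of 9 was lower without a filter (9.17%).

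The reported medians, over the 6 genes at 1 FPKM or more, moved by over 0.1 as different genes entered. Without a filter (9 genes) they were -0.45 (unaffected against control) and -0.82 (affected against control), the same as for single-gene loci only (5 genes), and at 5 FPKM or more (3 genes) -0.23 and -0.075. With the length trend subtracted, the median in affected against unaffected offspring was -0.059.

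Scaling to Gapdh and Ywhaz took the medians in affected against control offspring to -0.55 for those 6 genes, -0.10 for receptors, 0.021 for signalling, 0.094 for sensing, -0.26 for other interferon-stimulated genes and -0.41 for antigen presentation. Without a filter, sensing genes had medians of -0.14, -0.10 and -0.070 and other interferon-stimulated genes -0.29, -0.42 and -0.20 in unaffected against control, affected against control and affected against unaffected offspring, and signalling genes -0.022 in the last. At 5 FPKM or more, other interferon-stimulated genes had -0.031 in affected against control offspring, and antigen presentation -0.022 in affected against unaffected offspring. Antigen presentation had -0.18 with a pseudocount of 1 and -0.16 with the length trend subtracted in affected against control offspring, and 0.063 with that trend subtracted in affected against unaffected offspring. Where genes stayed the same and a value moved, the cause was not tested.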

Other observations

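Some weak interferon-stimulated genes were lowest in unaffected rather than affected offspring. These were picked after their values were seen. Oasl2, a relative of the oligoadenylate synthetases, was at 0.946, 0.512 and 0.778 FPKM in control, unaffected and affected offspring. Parp14 was at 0.178, 0.0814 and 0.145 FPKM and Gbp2 at 0.421, 0.232 and 0.315 FPKM. In the Ifitm family, Ifitm5 (0.0247, 0.162 and 0.171 FPKM) and Ifitm6 (0.0369, 0.138 and 0.194 FPKM) were listed higher in both exposed groups, at levels where few fragments are expected.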
